A study of Homo sapiens with 18 samples.

Results

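LY6D and 4 relatives, LY6E, LY6K, LYPD3 and PSCA, encode small cell-surface proteins of the LY6/uPAR family. The rows of both count tables carrying these symbols were taken, 5 of 60683 rows in each table. All 5 passed the filter on low counts in both tables, which kept 13882 rows in the table of actin cells and 13846 in the table of SETD3 cells. The genes were chosen by name with results of these libraries in view. Which values led to the choice is not recorded, and it was assumed here that LY6D was selected on its RNA level in ACTB-WT against Actin KO. Differences of the 5 members in the actin table, whose groups share libraries with that contrast, are therefore given as descriptions without a test. The tests in the SETD3 table are free of the choice only as far as that assumption holds. The gene lists read beside the members were also chosen with earlier results of these data known. Counts and p-values of list genes, in both tables, are therefore not free of that choice.

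RNA was sequenced from HCT-116, a long-established colorectal carcinoma cell line, in 6 groups of 3 libraries. In the actin table, the libraries labelled ACTB-WT came from Actin KO cells with stable over-expression of wild-type actin, those labelled ACTB-mut from Actin KO cells with stable over-expression of H73A mutant actin, and those labelled Actin KO from such cells with an empty construct. All 3 groups therefore lack the endogenous gene by their labels. In the SETD3 table, 2 knockout lines of SETD3, the methyltransferase of that actin histidine, called KO2 and KO1, stood beside a control called CT. The labels do not say whether a line was 1 clone, how the knockouts were made, or whether replicates were separate cultures, so the p-values speak only for the spread among these libraries. One library, KO2 replicate 3, carries the cell line label HCT-117 and was kept.

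LY6/uPAR proteins share a compact disulfide-bonded fold with finger-like loops, and most are held on the outer face of the plasma membrane by a glycosylphosphatidylinositol (GPI) anchor. LY6D is best known as an antigen of keratinocytes in stratified epithelium and as a marker of early B-lineage progenitors. LY6E is an interferon-responsive and retinoid-responsive protein that affects virus entry, LY6K is a cancer-testis antigen, PSCA is the prostate stem cell antigen, which gastric and bladder epithelium also make, and LYPD3 is a uPAR relative of stratified epithelium.

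Library totals ran from 5144386 to 11271910 counts in the actin table and from 3389586 to 11652967 in the SETD3 table, the lowest being KO2 replicate 1. Some SETD3 libraries deviated from their group means together across groups whatever their number, with r of 0.57 for CT replicate 2 and KO2 replicate 1 and 0.54 for CT replicate 1 and KO2 replicate 3, over 3779 genes. ACTB RNA averaged 27.8 CPM (a gene's counts put on a common library total, with TMM scaling) in ACTB-WT and 40.7 CPM in ACTB-mut, against 18.9 CPM in Actin KO, and 972 to 1360 CPM in the SETD3 groups. Neither add-back passed the test for ACTB (edgeR adjusted p = 0.496 for ACTB-WT and 0.093 for ACTB-mut). SETD3 RNA averaged 21.9 CPM in KO2 and 10.1 CPM in KO1, against 21.8 CPM in CT, with no call. The group names below are therefore those on the labels, and no direction drawn from them has a check on RNA of the targeted gene. Epithelial markers summed to 7950 to 13400 CPM in the 18 libraries, led by KRT18, KRT8 and KRT19, with VIL1 and LGALS4 at or near 0. The leukocyte markers PTPRC and CD3E were at 0 in every group, and the summed fibroblast and blood markers did not exceed 15.3 and 14.3 CPM in any library.

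LY6D levels differed between groups over a far wider range than those of its 4 relatives. It reached 153, 186 and 176 CPM in the libraries labelled ACTB-WT and 0.962, 1.1 and 0.507 CPM in those labelled ACTB-mut, against 3.45, 3.31 and 2.85 CPM in Actin KO. The 3 groups did not overlap: every ACTB-WT library lay above every Actin KO library, and every ACTB-mut library below. The ACTB-mut values rest on 11, 11 and 4 counts. In bulk RNA, more cells with the transcript and more transcript per cell cannot be told apart.

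In the SETD3 lines LY6D stood at 60.8, 126 and 128 CPM in KO2 and at 4.29, 9.16 and 5.46 CPM in KO1, against 14.8, 7.54 and 6.57 CPM in CT. All KO2 libraries lay above all libraries of the other groups of that table, while KO1 and CT overlapped. KO2 replicate 1, the lowest of its group, was also the shallowest library.

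**Figure D1:**
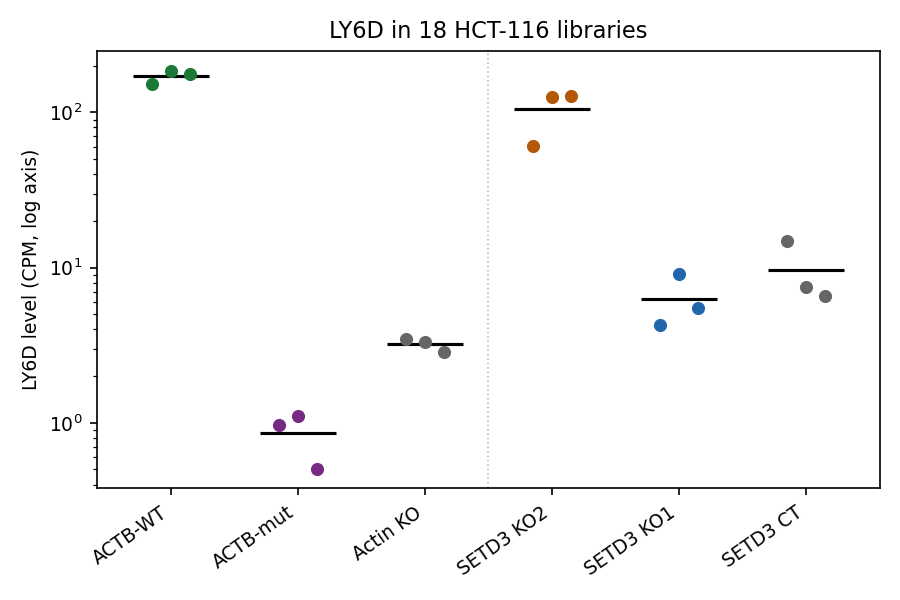
LY6D level in CPM on a log axis, 1 point per library, with horizontal bars at the group means, for the 3 actin groups and the 3 SETD3 groups. ACTB-WT (153 to 186 CPM) and SETD3 KO2 (60.8 to 128 CPM) stand apart from the other groups, and ACTB-mut is lowest (0.507 to 1.1 CPM).

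Across the 6 group means the order of LY6D was ACTB-WT (172 ± 17.4 CPM, SD, n = 3), KO2 (105 ± 38.0), CT (9.65 ± 4.52), KO1 (6.3 ± 2.54), Actin KO (3.21 ± 0.313) and ACTB-mut (0.856 ± 0.309). Of the neighbours in this order only CT and KO1 overlapped. The tables were scaled separately, so this order across them is a description. The highest group mean was 201 times the lowest, and the highest library 367 times the lowest. For LY6E the same ratio of group means was 1.64, for LYPD3 2.18, for LY6K 3.08 and for PSCA 3.23.

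On the log2 scale LY6D was 5.74 higher in ACTB-WT than in Actin KO (SE 0.25, a 53.4-fold difference). It was lower by 1.85 in ACTB-mut than in Actin KO (log2 -1.85, SE 0.30, 0.278-fold). ACTB-mut and ACTB-WT differed by -7.59 (SE 0.29). Both add-backs were set against the same Actin KO libraries. As background, edgeR called (adjusted p below 0.05) 1.12% of all tested genes for ACTB-WT against Actin KO, 0.922% for ACTB-mut against Actin KO and 1.24% for ACTB-mut against ACTB-WT. By size, LY6D ranked 55 of 13882 among the highest folds in ACTB-WT against Actin KO, and 13877 of 13882, among the lowest, in ACTB-mut against ACTB-WT. LY6D was assumed to be selected on the first contrast, and the second shares its ACTB-WT libraries. Extreme ranks would follow from that selection, so they are descriptions only.

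Within groups, LY6D varied less than most genes. Its biological coefficient of variation, the spread between replicates beyond counting error, was 19% in the actin table and 37.1% in the SETD3 table, where the medians over all tested genes were 42.5% and 53.8%. LY6E, the most abundant member, had 16.6% and 29%. LYPD3 was the most variable, at 54.7% and 63.1%.

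The SETD3 lines gave tested values for all 5 members. Whether values of the SETD3 table also led to the choice of LY6D is not recorded. Its p-values in that table, and its place among the called genes, may therefore not be free of the choice. LY6D rose in KO2 against CT by 3.43 on the log2 scale (SE 0.45, 95% interval 2.45 to 4.40, a 10.8-fold difference, edgeR adjusted p = 0.0125). It was the one member among the 8 genes called in that comparison, 0.0578% of genes tested. The call was lost without KO2 replicate 2 (adjusted p = 0.11), KO2 replicate 3 (0.0584), CT replicate 2 (0.0794) or CT replicate 3 (0.159), while the log2 difference stayed between 3.21 and 3.90. It was also lost with only KO2 and CT in the fit (adjusted p = 0.0534).

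KO1, the other SETD3 line, gave no call for LY6D. Its difference from CT was -0.62 (SE 0.43, 95% interval -1.55 to 0.32, edgeR adjusted p = 0.998), and no member was called among the 2 genes called there, 0.0144% of genes tested. None of the 5 members had an unadjusted p below 0.05 in KO1 and none was called by DESeq2. Set against each other, KO2 was higher than KO1 for LY6D by 4.05 (SE 0.47, 95% interval 3.04 to 5.05, 16.5-fold, adjusted p = 0.00374), 1 of 4 genes called, 0.0289% of genes tested. Without KO1 replicate 1 or KO1 replicate 3 the adjusted p was 0.0585 and 0.0553, and the log2 difference ranged from 3.83 to 4.42 over the 6 fits with 1 library left out. The 2 lines share the CT libraries in their comparisons with CT. The other genes called between KO2 and KO1 were BST2, IFI27 and IFI6, all interferon targets.

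LY6D lies at GRCh38 chromosome 8, 142784880 to 142786592, on the minus strand (ENSG00000167656), and its exons overlap those of an antisense gene, AC083841.2. The strand setting of the counting is not given, so reads of the 2 genes may be split wrongly. AC083841.2 held 54 counts over the ACTB-WT libraries and 29 over ACTB-mut, against 18 over Actin KO. Among the SETD3 groups it held 44 counts in KO2 and 20 in KO1, against 20 in CT. LY6D held 3165 counts over the ACTB-WT libraries and 3124 over KO2, so the antisense gene's counts were small beside them. In ACTB-mut, with 26 counts for LY6D and 29 for AC083841.2, they were not.

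LY6E lies on the telomeric side of LY6D (ENSG00000160932, chromosome 8, 143017982 to 143023832, plus strand). It was present in every library, at 359, 378 and 287 CPM in ACTB-WT and 292, 204 and 304 CPM in ACTB-mut, against 267, 307 and 345 CPM in Actin KO. Its SETD3-table values were 556, 311 and 364 CPM in KO2 and 469, 229 and 381 CPM in KO1, against 278, 525 and 502 CPM in CT. Every pair of groups compared overlapped. Its log2 differences were 0.16 (SE 0.16) in ACTB-WT and -0.20 (SE 0.16) in ACTB-mut, each against Actin KO. Against CT they were -0.09 in KO2 (95% interval -0.76 to 0.59) and -0.27 in KO1 (-0.95 to 0.40), with edgeR adjusted p of 1 and 0.998.

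The make-up of the RNA of the 5 genes differed with LY6D. It made up a mean of 31.9% of the summed CPM of the 5 genes in ACTB-WT and 0.313% in ACTB-mut, against 0.947% in Actin KO. It took 20.1% in KO2 and 1.89% in KO1, against 2.44% in CT. LY6E took the largest share in all groups, 63.0% to 92.7%. Per kilobase of exon, the scale on which genes can be compared, LY6D reached a level of 111 CPM per kb in ACTB-WT, where LY6E had 129, and 0.551 in ACTB-mut, where LY6E had 101. In KO2 the levels were 67.4 for LY6D and 155 for LY6E.

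**Figure D2:**
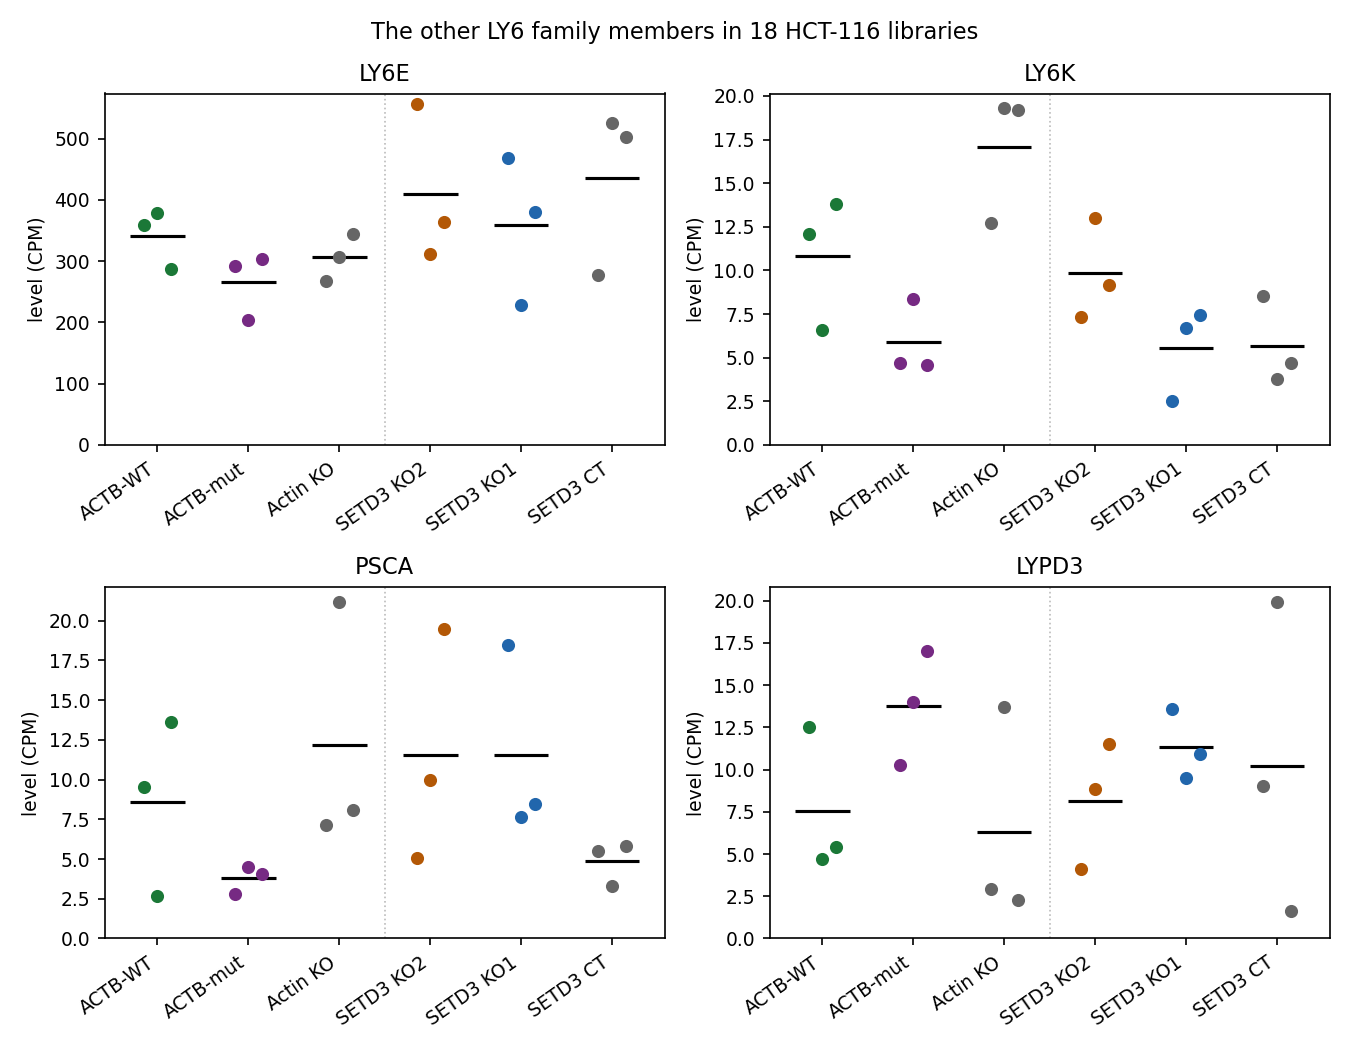
Levels of LY6E, LY6K, LYPD3 and PSCA in CPM, 1 point per library with bars at the group means, a panel per gene with its own axis. LY6E runs from 204 to 556 CPM with every group overlapping its neighbour, and the other genes stay below 22 CPM.

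LY6K (ENSG00000160886, chromosome 8, 142700111 to 142705127, plus strand) was at 12.1, 6.58 and 13.8 CPM in ACTB-WT and 4.72, 8.39 and 4.57 CPM in ACTB-mut, against 12.7, 19.3 and 19.2 CPM in Actin KO. ACTB-mut lay wholly below Actin KO, by a log2 difference of -1.53 (SE 0.44), while ACTB-WT overlapped it (-0.66, SE 0.43). Among the SETD3 groups LY6K stood at 7.32, 13 and 9.19 CPM in KO2 and 2.52, 6.7 and 7.43 CPM in KO1, against 8.54, 3.77 and 4.67 CPM in CT. Those groups overlapped, and the differences from CT were 0.79 in KO2 (95% interval -0.63 to 2.22) and -0.04 in KO1 (-1.46 to 1.39), with edgeR adjusted p of 1 and 0.998. The antisense gene LNCOC1 covers most of LY6K's exons, so these levels are uncertain. LNCOC1 averaged 4.55 CPM in ACTB-WT and 2.35 in ACTB-mut, against 3.36 in Actin KO. LY6K averaged 10.8, 5.89 and 17.1 CPM in the same order of groups. Among the SETD3 groups LNCOC1 averaged 2.55 CPM in KO2 and 0.495 in KO1, against 1.84 in CT.

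PSCA (ENSG00000167653, chromosome 8, 142670308 to 142682724, plus strand) was at 9.54, 2.69 and 13.6 CPM in ACTB-WT and 2.8, 4.49 and 4.06 CPM in ACTB-mut, against 7.16, 21.2 and 8.1 CPM in Actin KO. ACTB-mut again lay wholly below Actin KO (log2 -1.68, SE 0.63; -1.02 without Actin KO replicate 2, the library at 21.2 CPM), and ACTB-WT overlapped it (-0.50, SE 0.61; 0.16 without that library). With LY6D, LY6K and PSCA, 3 of 5 members had ACTB-mut libraries that did not overlap Actin KO, where 18.5% of all tested genes did not overlap. That count includes LY6D, assumed to be selected with the same Actin KO libraries, so it is no test of the family. For ACTB-WT against Actin KO and for ACTB-mut against ACTB-WT it was LY6D alone, beside 16.7% and 18.1% of all genes.

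Among the SETD3 groups PSCA stood at 5.09, 10 and 19.5 CPM in KO2 and 18.5, 7.64 and 8.49 CPM in KO1, against 5.53, 3.32 and 5.81 CPM in CT. KO1 lay wholly above CT and KO2 overlapped it. The differences from CT were 1.24 in KO2 (SE 0.64, 95% interval -0.13 to 2.62, edgeR adjusted p = 1) and 1.23 in KO1 (SE 0.64, -0.15 to 2.61, adjusted p = 0.921), neither called. PSCA was the member that did not overlap in KO1 against CT, beside 13.2% of all genes. LY6D was the one that did not overlap in KO2 against CT and in KO2 against KO1, beside 10.2% and 11.9%. Part of PSCA overlaps JRK, a gene on the other strand, which held 244 counts in KO1 and 447 in CT, where PSCA held 246 and 118.

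LYPD3 (ENSG00000124466, chromosome 19, 43460787 to 43465660, minus strand) is the member outside the chromosome 8 cluster, and no annotated gene overlaps its exons. It was at 12.5, 4.7 and 5.4 CPM in ACTB-WT and 10.3, 14 and 17 CPM in ACTB-mut, against 2.92, 13.7 and 2.28 CPM in Actin KO. All 3 groups overlapped, Actin KO through its replicate 2, the library at 13.7 CPM. Its log2 differences from Actin KO were 0.25 in ACTB-WT (SE 0.64) and 1.12 in ACTB-mut (SE 0.64), and without that library they were 1.52 and 2.39. The first was -0.32 without ACTB-WT replicate 1, so its direction is not settled. Its SETD3-table values were 4.14, 8.85 and 11.5 CPM in KO2 and 13.6, 9.52 and 10.9 CPM in KO1, against 9.02, 19.9 and 1.64 CPM in CT. CT alone spanned both other groups, and the differences were -0.29 in KO2 and 0.17 in KO1 (edgeR adjusted p of 1 and 0.998).

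Between the 2 SETD3 lines directly, none of the 4 relatives of LY6D was called. KO2 minus KO1 was 0.19 for LY6E (95% interval -0.48 to 0.86), 0.83 for LY6K (-0.60 to 2.26), 0.02 for PSCA (-1.33 to 1.36) and -0.46 for LYPD3 (-2.06 to 1.14), each with an edgeR adjusted p of 0.999. The intervals of LY6K, PSCA and LYPD3 each reach beyond 1 on the log2 scale, so equality was not shown.

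**Figure D3:**
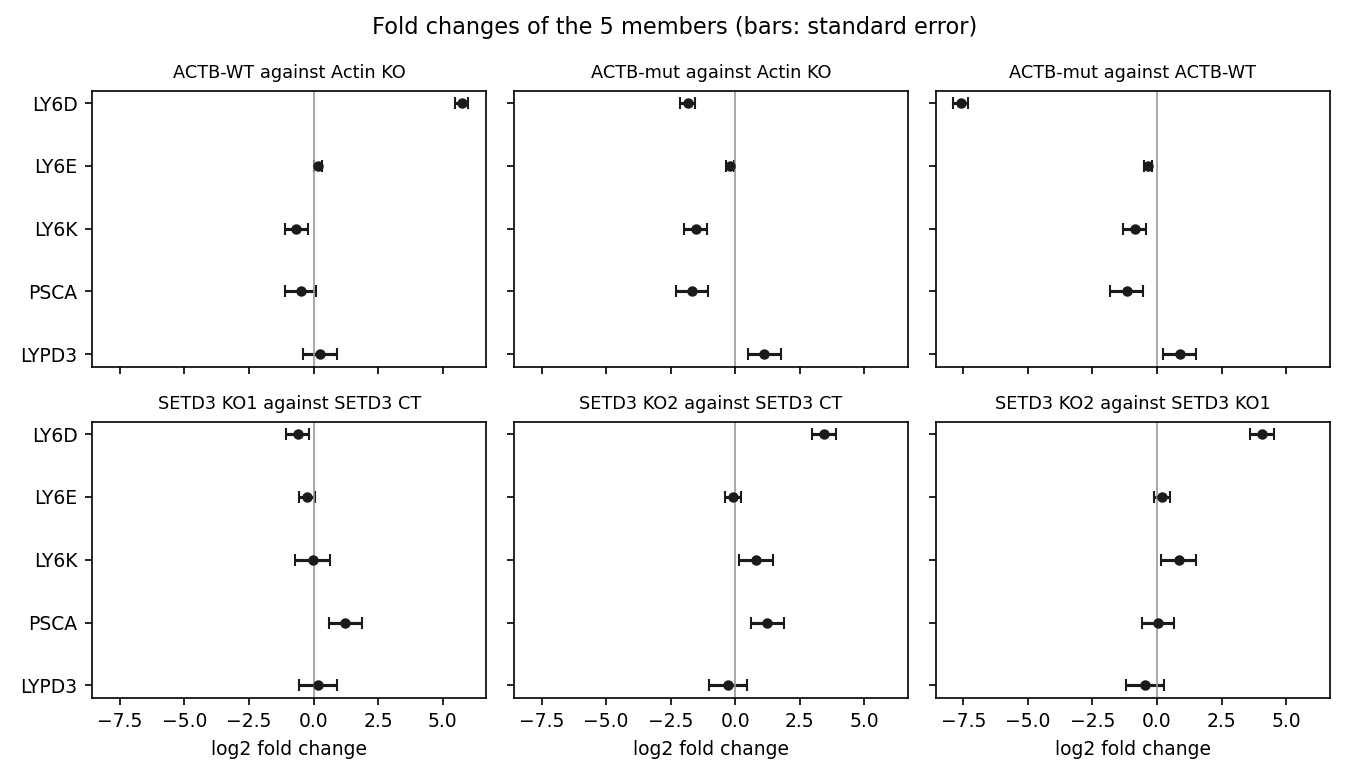
Log2 differences of the 5 genes in the 6 comparisons, each as first-named over second-named group, with bars for the standard error of the edgeR fit. LY6D is at 5.74, -1.85 and -7.59 in the actin table and at 3.43 and 4.05 in the 2 comparisons with SETD3 KO2 on top, while LY6E stays between -0.36 and 0.19.

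The genes around the cluster, on chromosome arm 8q, gave no call beside LY6D. Of 29 neighbours with a row, 19 were tested, and none was called by edgeR in the 6 comparisons. Unadjusted p-values below 0.05 numbered 3 for ACTB-WT against Actin KO, 6 for ACTB-mut against Actin KO, 5 for ACTB-mut against ACTB-WT, 1 for KO1 against CT, 2 for KO2 against CT and 1 for KO2 against KO1. Over all tested genes the share with an unadjusted p below 0.05 was 11.2%, 11.5%, 12%, 5.75%, 4.95% and 4.84% in these comparisons, in the same order, and it is the background for such counts in the other lists as well. DESeq2 called ARC in ACTB-mut against Actin KO, ZC3H3 in ACTB-mut against ACTB-WT, MAFA in KO1 and KO2 against CT, and NAPRT in KO2 against CT. The median log2 difference of the 19 genes was -0.09 in ACTB-WT and -0.40 in ACTB-mut, each against Actin KO, beside -0.01 and 0.03 over all genes. Against CT it was -0.34 in KO2 and -0.14 in KO1, beside -0.01 and -0.02.

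EEF1D, a translation elongation subunit and the most abundant neighbour, stood at 700 ± 171 CPM in ACTB-WT and 719 ± 181 in ACTB-mut, against 548 ± 24.8 in Actin KO (SD, n = 3). Its SETD3-table means were 514 CPM in KO2 and 639 in KO1, against 678 in CT. The lower coordinate of LYNX1, a LY6 protein that modulates nicotinic acetylcholine receptors, lies 14 kb from that of LY6D. LYNX1 is the nearest tested neighbour of LY6D. It averaged 10.1 ± 4.16 CPM in ACTB-WT and 5.75 ± 4.50 in ACTB-mut, against 2.04 ± 1.18 in Actin KO, differences of 2.31 (SE 0.76, edgeR adjusted p = 0.215) for ACTB-WT and 1.49 (adjusted p = 0.474) for ACTB-mut. In KO2, where LY6D rose, LYNX1 averaged 5.3 CPM, against 5.81 in CT (-0.13, adjusted p = 1). SLURP1, LYPD2, GML, CYP11B1, CYP11B2, LY6L and LY6H, which lie within 373 kb of LY6D, had no count in any group.

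**Figure D4:**
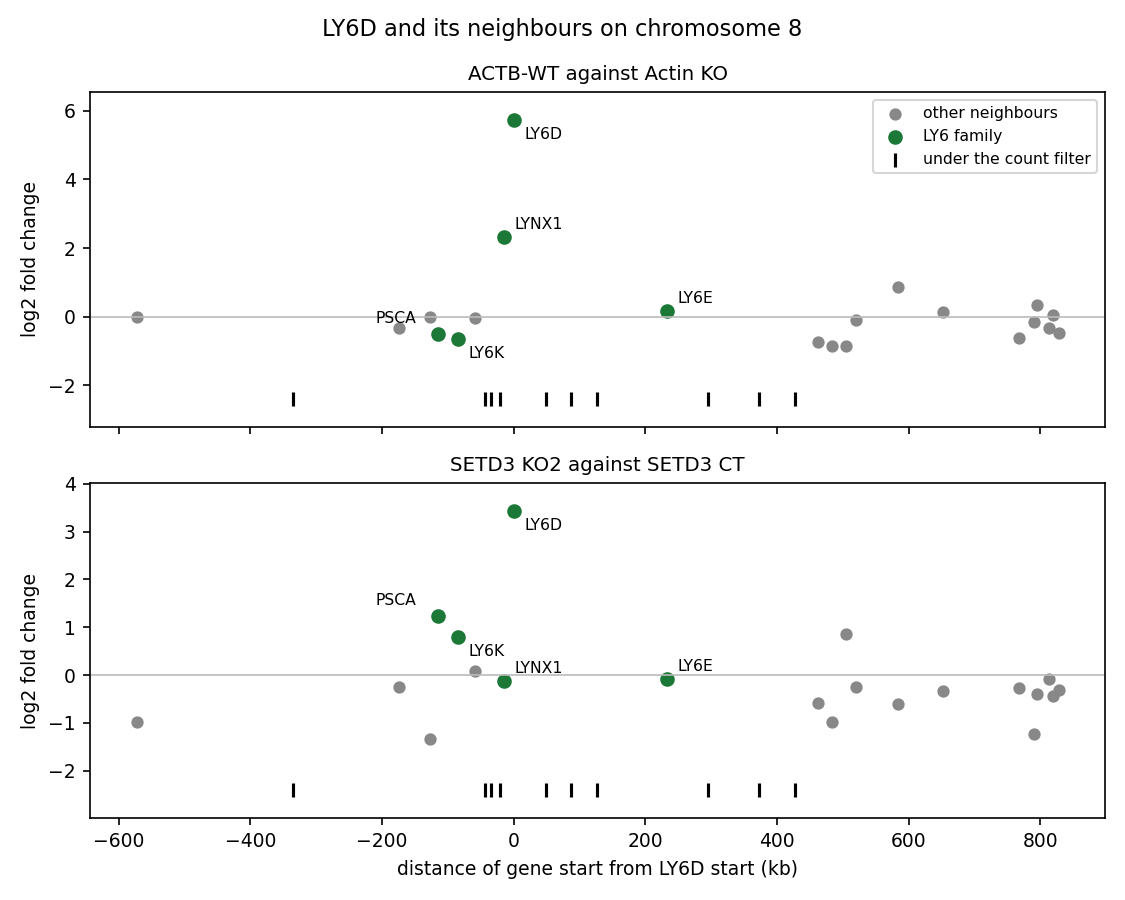
Log2 difference of each tested gene around LY6D against the distance of its lower coordinate from that of LY6D in kb, for ACTB-WT against Actin KO and for SETD3 KO2 against CT. LY6D stands at 5.74 and 3.43, while LYNX1 is at 2.31 and -0.13 and LY6E at 0.16 and -0.09. Ticks mark genes under the count filter. PTP4A3, which lies farther out, and MAFA, which had no count in CT, are left out.

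Other genes of the LY6/uPAR family were mostly silent. Of 28 rows, 7 were tested in the actin table and 6 in the SETD3 table. PLAUR, the urokinase receptor and the most abundant, averaged 54.3 ± 14.0 CPM in ACTB-WT and 39.3 ± 5.19 in ACTB-mut, against 49.2 ± 3.65 in Actin KO. It averaged 32.1 ± 6.07 CPM in KO2 and 37.5 ± 6.25 in KO1, against 60.8 ± 0.886 in CT, differences of -0.91 (SE 0.27, edgeR adjusted p = 0.599) and -0.69 (SE 0.27, adjusted p = 0.826). None of the list was called by edgeR in ACTB-WT or ACTB-mut against Actin KO or in the SETD3 table. Unadjusted p-values below 0.05 there were those of CD59 and LYNX1 in ACTB-WT and of PLAUR in KO1 and KO2 against CT, and DESeq2 called CD59 in ACTB-WT and PLAUR in KO2 against CT.

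CD59, the inhibitor of the complement membrane attack complex, was the member of that list called between the add-backs. It averaged 30.6 ± 3.17 CPM in ACTB-mut and 9.56 ± 1.90 in ACTB-WT (log2 1.67, SE 0.30, edgeR adjusted p = 0.0125), with 23.6 ± 3.84 CPM in Actin KO. LY6D ran the other way between the same groups, at -7.59. The CD59 call was lost without ACTB-WT replicate 1, ACTB-WT replicate 2 or ACTB-mut replicate 1, with adjusted p up to 0.0671.

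The enzymes that build and attach the GPI anchor showed no call by edgeR or DESeq2 in any comparison. Of 31 listed, 28 were tested in the actin table and 27 in the SETD3 table. Unadjusted p-values below 0.05 numbered 3, 2 and 4 in ACTB-WT against Actin KO, ACTB-mut against Actin KO and ACTB-mut against ACTB-WT, and 0 in the SETD3 table. Their median difference was -0.05 in ACTB-WT, -0.21 in ACTB-mut, -0.04 in KO2 and 0.01 in KO1, each against its own control. DPM3, a subunit of dolichol-phosphate mannose synthase and the most abundant, averaged 191 ± 17.6 CPM in ACTB-WT and 178 ± 36.3 in ACTB-mut, against 144 ± 11.0 in Actin KO. It averaged 143 CPM in KO2 and 170 in KO1, against 196 in CT.

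A list of plasminogen activation genes and adhesion partners of LYPD3 and PLAUR had 14 tested genes. ITGA6, an integrin alpha chain of epithelial cells, had 0 counts in all ACTB-WT libraries and 150 counts over Actin KO, so it was at least 37.2-fold lower in ACTB-WT, with the floor set at 3 counts over the group (edgeR adjusted p = 0.0231). It was at least 36.4-fold higher in ACTB-mut, with 176 counts, than in ACTB-WT (adjusted p = 0.0219). These calls depended on single libraries. The first was lost without any of the 3 ACTB-WT libraries and without Actin KO replicate 1 or 2 (highest adjusted p 0.0938). The second was lost without any of the ACTB-WT libraries and without ACTB-mut replicate 3 (highest adjusted p 0.0842).

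In ACTB-mut, ITGA3 and ITGB4 fell against Actin KO. ITGA3, the alpha chain of a laminin receptor, averaged 156 ± 32.1 CPM, against 308 ± 27.0 (log2 -0.98, SE 0.15, edgeR adjusted p = 0.00529). ITGB4, the hemidesmosome beta chain, averaged 113 ± 19.4 CPM, against 223 ± 16.5 (-0.97, SE 0.17, adjusted p = 0.0121), a call lost without ACTB-mut replicate 1 or 2, or without replicate 1 or 3 of Actin KO, with a highest adjusted p of 0.0679. None of the 14 was called by edgeR in the SETD3 table. Unadjusted p-values below 0.05 numbered 3 in KO2 and 6 in KO1 against CT and 0 between the lines, and DESeq2 called PLAUR in KO2. ITGA3, the most abundant, averaged 245 CPM in KO2 and 266 in KO1, against 296 in CT.

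LY6D is a marker of stratified epithelium, and a list of genes of that tissue was read beside it, 16 of them tested in the actin table. In ACTB-WT 3 rose against Actin KO and none fell, with a median of 0.58 beside -0.01 over all genes. Of all tested genes, edgeR called 1.12% in that comparison. KRT13, a keratin of internal stratified epithelia, was at 56.9, 47.3 and 33.8 CPM in ACTB-WT and 3.41, 0.799 and 0 CPM in ACTB-mut, against 0, 1.23 and 0.228 CPM in Actin KO. ACTB-WT lay far above both others, by 6.51 over Actin KO (SE 1.00, edgeR adjusted p = 0.00391), and ACTB-mut was lower than ACTB-WT (log2 -4.95, adjusted p = 0.0131). The second call was lost without ACTB-WT replicate 2 or ACTB-mut replicate 2 (adjusted p up to 0.0661).

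KRT17, a keratin of basal and stressed epithelium, averaged 26.2 ± 21.0 CPM in ACTB-WT and 0.0957 ± 0.100 in ACTB-mut, against 2.18 ± 1.22 in Actin KO. The rise in ACTB-WT was 3.58 (SE 0.68, edgeR adjusted p = 0.0149), lost without ACTB-WT replicate 3 (0.232), Actin KO replicate 1 (0.0838) or Actin KO replicate 2 (0.0759). ACTB-mut held 3 counts, against 471 in ACTB-WT, a ratio of 253 in favour of ACTB-WT (95% counting interval 86.0 to 1230, edgeR adjusted p = 0.00043; 0.0979 with limma-voom). Against the 54 counts of Actin KO the ratio was 21.6 (7.01 to 108) in favour of Actin KO, a call (edgeR adjusted p = 0.0344) that held in the fit without Actin KO replicate 2 and was lost in the other 5 with a library left out, with a highest adjusted p of 0.157.

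S100A2, a calcium-binding protein of basal keratinocytes, rose in both add-backs, to 79.5 ± 11.6 CPM in ACTB-WT and 101 ± 7.94 in ACTB-mut, against 39.8 ± 12.6 in Actin KO (log2 1.00, edgeR adjusted p = 0.0357, and 1.35, adjusted p = 0.00729). With a library left out, the ACTB-WT call held without Actin KO replicate 2 and was lost in the other 5 fits (highest adjusted p 0.17). The ACTB-mut call was lost without Actin KO replicate 3 (0.0545).

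None of the 19 genes of stratified epithelium tested in the SETD3 table was called by edgeR. Unadjusted p-values below 0.05 numbered 3 for KO2 against CT, 5 for KO1 against CT and 3 for KO2 against KO1, and DESeq2 called KRT6A in KO2 and KRT14 in KO1, each against CT, and KRT14 between the lines. KRT13 was at 12.1, 26.5 and 12.7 CPM in KO2 and 9.62, 11.5 and 24.9 CPM in KO1, against 28.7, 36.6 and 48.7 CPM in CT. All KO2 and KO1 libraries lay below all CT libraries, the opposite side from LY6D in KO2. Of all tested genes, 10.2% did not overlap in KO2 against CT and 13.2% in KO1 against CT. KRT13 was named here after its values were seen. Of the 19 genes, 11 were higher and 8 lower in KO2 than in CT, with a median of 0.23 beside -0.01 over all genes. The most abundant genes of the list were SFN, at 386 CPM in KO2 and 323 in KO1, against 330 in CT, and JUP, at 323 CPM in KO1 and 381 in CT.

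The 10 defining markers of stratified squamous epithelium summed to 42.0 to 61.2 CPM in ACTB-WT and 3.89 to 6.38 in ACTB-mut, against 3.08 to 10.2 in Actin KO. They summed to 16.5 to 46.0 CPM in KO2 and 14.5 to 26.4 in KO1, against 31.2 to 58.7 in CT. KRT13 made up most of the sum in ACTB-WT, and TP63, the master regulator of these epithelia, and SPRR3 were at 0 in all 6 groups. In ACTB-WT 5 of the 10 averaged above 1 CPM, with 3 in ACTB-mut and 1 in Actin KO. KRT5 (1.02 CPM), IVL (1.05) and DSC3 (1.11) lay close to that cut in ACTB-WT. DSC3 ran the other way, at 6.03 CPM in Actin KO. Among the SETD3 groups the numbers were 3 in KO2 and 2 in KO1, with 4 in CT. Their part in the level of LY6D in ACTB-WT and in KO2 was not tested.

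**Figure D5:**
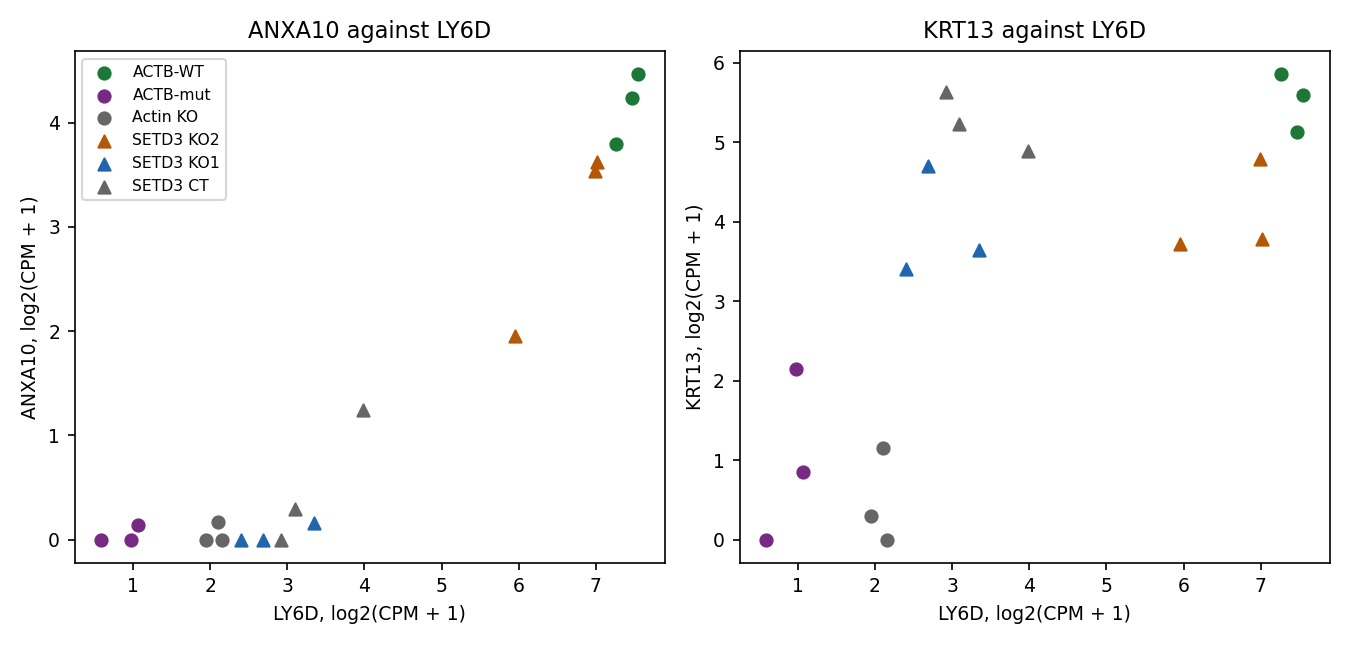
Level of ANXA10 (left) and KRT13 (right) against that of LY6D, both as log2(CPM + 1), 1 point per library, with circles for the actin table and triangles for the SETD3 table. All 3 genes are highest in ACTB-WT within the actin table, while in the SETD3 table LY6D and ANXA10 are highest in KO2 and KRT13 in CT.

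LY6E belongs to the interferon targets, and other members of that list fell in both add-backs. Of 29 tested, 8 fell and none rose in ACTB-WT, and 5 fell and none rose in ACTB-mut. Of all tested genes, edgeR called 1.12% and 0.922% there. The medians of the list were -0.92 and -0.63, beside -0.01 and 0.03 over all genes. LY6E itself was at 0.16 and -0.20 in these comparisons, which share the Actin KO libraries. IFI6, an interferon-induced mitochondrial protein, averaged 21.3 ± 4.72 CPM in ACTB-WT and 32.5 ± 13.0 in ACTB-mut, against 143 ± 22.9 in Actin KO (edgeR adjusted p = 8.05e-05 and 0.00138). Its calls held in all fits that left out a library.

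Among the called genes, the other largest falls in ACTB-WT were those of PARP9, OAS1 and PSMB9. PARP9, a mono-ADP-ribosyltransferase family member, had 0 counts in ACTB-WT and 107 in Actin KO, at least 26.6-fold lower (edgeR adjusted p = 0.0241). OAS1, an antiviral sensor of double-stranded RNA, averaged 0.192 CPM in ACTB-WT and 8.08 in Actin KO (log2 -5.18, adjusted p = 0.0497). PSMB9, an immunoproteasome subunit, averaged 4.36 ± 2.99 CPM in ACTB-WT and 40.2 ± 8.72 in Actin KO (-3.24, adjusted p = 0.00261), a call that held in all 6 fits with a library left out. The OAS1 call was lost in all 6 of those fits (adjusted p 0.08 to 0.206). The PARP9 call held without Actin KO replicate 3 and was lost in the other 5 (highest 0.102).

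Among the called genes, the 4 largest falls in ACTB-mut were those of IFI27, IFI6, OAS3 and IFITM3. IFI27 averaged 6.29 ± 1.74 CPM in ACTB-mut and 51.5 ± 4.36 in Actin KO (log2 -3.03, edgeR adjusted p = 0.000466). OAS3, a relative of OAS1, averaged 26.8 ± 2.94 CPM in ACTB-mut and 80.7 ± 13.6 in Actin KO (-1.59, adjusted p = 0.00264). IFITM3, which blocks virus entry at endosomal membranes, averaged 821 ± 227 CPM in ACTB-mut and 1550 ± 62.0 in Actin KO (-0.92, adjusted p = 0.0148), lost without Actin KO replicate 2 (0.0532) or 3 (0.0686). Between the add-backs, PARP9 was at least 26.3-fold higher in ACTB-mut than in ACTB-WT (adjusted p = 0.023), a call that held without ACTB-mut replicate 2 and was lost in the other 5 fits (highest 0.0841). IFI27 was lower in ACTB-mut (-1.36, adjusted p = 0.0466), lost in all 6 (up to 0.179).

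Of the interferon targets, 32 were tested in the SETD3 table, where edgeR called 0.0578% of all tested genes in KO2 and 0.0144% in KO1, each against CT. In KO2 1 rose and none fell against CT: IFI27 averaged 618 ± 82.6 CPM in KO2 and 84.1 ± 29 in CT (log2 2.88, SE 0.25, edgeR adjusted p = 0.000672). In KO1 2 fell and none rose, with 30 of 32 differences negative and a median of -0.93 beside -0.02 over all genes. They were IFI6, at 42.7 ± 4.32 CPM in KO1 and 162 ± 27.0 in CT (-1.93, adjusted p = 0.00731), and BST2, which tethers budding viruses and is itself GPI-anchored, at 2.85 ± 1.18 CPM in KO1 and 33.0 ± 9.12 in CT (-3.53, adjusted p = 0.0126). The IFI6 call was lost without KO1 replicate 1, KO1 replicate 2 or CT replicate 3 (up to 0.0674), and the BST2 call without any 1 KO1 library or CT replicate 3 (up to 0.0998). LY6E was at -0.09 in KO2 and -0.27 in KO1, and whether it differed from the rest of the list was not tested.

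Between the lines, IFI6, BST2 and IFI27 were higher in KO2 than in KO1, with log2 differences of 2.82, 4.17 and 4.16 (edgeR adjusted p = 6.3e-05, 0.00173 and 1.77e-05). The median of the 32 was 0.90, while LY6E was at 0.19. LY6D, with 4.05, stood among these called genes although it is not on the interferon list. IFI6 and IFI27 were lower than in Actin KO both in ACTB-WT, where LY6D was highest, and in ACTB-mut, where LY6D was lowest. A link of LY6D to these genes was not tested.

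LY6E is also known as retinoic acid induced, and 10 other retinoid targets were tested in the actin table. None rose against Actin KO, and the same number, 2, fell in each add-back. Of all tested genes, edgeR called 1.12% in ACTB-WT and 0.922% in ACTB-mut, each against Actin KO. ALDH1A3, which makes retinoic acid, averaged 36.6 ± 3.95 CPM in ACTB-WT and 80.0 ± 3.96 in ACTB-mut, against 143 ± 10.2 in Actin KO (log2 -1.97, edgeR adjusted p = 6.87e-06, and -0.84, adjusted p = 0.0171). DHRS3, a retinaldehyde reductase, averaged 112 ± 12.1 CPM in ACTB-WT and 156 ± 27.4 in ACTB-mut, against 255 ± 30.7 in Actin KO (-1.19, adjusted p = 0.000888, and -0.71, adjusted p = 0.0479). The ACTB-WT calls of both genes held in all 6 fits with a library left out. Both ACTB-mut calls were lost in all 6, with adjusted p of 0.0568 to 0.0778 for ALDH1A3 and 0.0676 to 0.192 for DHRS3.

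ALDH1A3 was also higher in ACTB-mut than in ACTB-WT (log2 1.13, edgeR adjusted p = 0.00291). Of the 9 retinoid targets tested in the SETD3 table none was called by edgeR. Unadjusted p-values below 0.05 numbered 1 in KO2 and 1 in KO1 against CT and 2 between the lines, where DESeq2 called TGM2. CRABP2, a retinoic acid carrier and the most abundant, averaged 578 ± 104 CPM in KO2 and 431 ± 92.2 in KO1, against 441 ± 80.8 in CT.

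The genes most like LY6D were ranked by Pearson's r of log2 CPM over the 9 actin libraries, among 10002 genes with at least 5 CPM in some group. These r describe a pattern of 3 groups in libraries shared by all genes. The highest was ANXA10, a gastric-type annexin, with r = 0.973, then AL135905.1 (0.966), RABL6 (0.964), PITX1 (0.963) and AC004967.2 (0.962). The lowest were AC010542.4 (-0.994), TXN (-0.985), CCT8 (-0.981), CAVIN3 (-0.972) and SPARC (-0.971). SPARC, a matricellular protein, averaged 31.3 ± 9.82 CPM in ACTB-WT and 655 ± 92.7 in ACTB-mut, against 202 ± 39.3 in Actin KO. Ranked by Spearman's rho instead, none of the 5 highest was the same.

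Over the 9 SETD3 libraries ANXA10 and LY6D had r = 0.98. ANXA10 was above 5 CPM in ACTB-WT and KO2 alone, so its r in each table describes 1 high group. RABL6, PITX1 and AC004967.2 had r of 0.02, 0.02 and -0.18 there, and the 5 lowest ran from -0.27 to 0.34. AL135905.1 was under the count filter there and had no r. It averaged 0.303 CPM in KO2 and 0 in KO1, against 1.18 in CT. In the actin table it passed the cut of 5 CPM through ACTB-WT alone (5.96 CPM). ANXA10 was at 12.9, 21.1 and 17.8 CPM in ACTB-WT and 0, 0.0998 and 0 CPM in ACTB-mut, against 0, 0.123 and 0 CPM in Actin KO. Its SETD3-table values were 2.86, 10.6 and 11.3 CPM in KO2 and 0, 0.117 and 0 CPM in KO1, against 1.36, 0.222 and 0 CPM in CT. All ACTB-WT libraries lay above the rest of their table, and all KO2 libraries above the rest of theirs.

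ANXA10 held 324 counts over ACTB-WT and 1 each over ACTB-mut and Actin KO, a ratio of 435 to Actin KO with a 95% counting interval of 77.5 to 17200. The rise in KO2 against CT, 3.87 on the log2 scale, was not called (edgeR adjusted p = 0.828). The other members were less like LY6D, with r of 0.519 for LY6E, 0.242 for LY6K, 0.212 for PSCA and -0.243 for LYPD3 over the actin libraries. Over the SETD3 libraries LY6K had 0.75, PSCA 0.25, LYPD3 -0.05 and LY6E -0.14.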

How the data were processed

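The authors deposited expected counts per gene, made with RSEM 1.2.28 and Bowtie2 on GRCh38 after Trim Galore 0.4.5 and cutadapt 1.15, per the submitters' processing notes. The annotation release and strand setting are not given in the sources used here. Expected counts were rounded to whole numbers. Separate fits, 1 per table with all 3 groups, used edgeR 4.0.16 in R 4.3.3 (filterByExpr, TMM scaling, robust quasi-likelihood F tests, two-sided), and p-values were adjusted by Benjamini-Hochberg over all its tested genes. A call is an adjusted p below 0.05. Levels are CPM scaled by TMM, and log2 folds and intervals are from the fit. Coordinates, exon length and GC content came from GENCODE release 29. Likeness used log2 CPM with a prior count of 2. Counting intervals and floors cover counting error only.

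The 5 members and all gene lists were chosen with earlier results of these data known. From each list the text names, per comparison, up to 4 called genes with the largest changes, or the most abundant gene where none was called. Genes singled out by unadjusted p or by DESeq2, and KRT13 in the SETD3 table, were named after their values were seen. Alternatives were DESeq2 1.42.0, RLE factors, no filter, limma-voom (limma 3.58.1), 2 groups per fit, GC offsets, a replicate block and leaving out each library. The fits were tested on simulated data.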

Additional observations from a re-analysis of the deposited data

Results flagged for a closer look

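LY6D differed between the SETD3 lines: its effect in KO2 and its effect in KO1, each against CT, differed by 4.05 on the log2 scale, and the difference itself passed the test (edgeR adjusted p = 0.00374), with all 3 KO2 libraries above all 3 KO1 libraries. BST2 (4.17), IFI27 (4.16) and IFI6 (2.82) differed between the lines in the same way and passed the same test. The LY6D test is free of the choice of genes only as far as the assumption on that choice holds. The interferon list, which holds the other 3 genes, was chosen with earlier results known. LY6D also lay on opposite sides of Actin KO in the add-backs, with every ACTB-mut library below and every ACTB-WT library above it, and the add-backs differed by -7.59 (ACTB-mut minus ACTB-WT). It is given as a description, not tested here, because LY6D was taken to have been selected in that table.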

How the results depend on the processing

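Counts of called genes depended on the method. For ACTB-WT against Actin KO the 155 calls became 433 with DESeq2, 320 without the filter, 89 with limma-voom and 89 with the replicate block, for ACTB-mut against Actin KO the 128 became 447, 371, 85 with the block and 55 with the block and GC offsets, and for ACTB-mut against ACTB-WT the 172 became 524, 402, 104 with 2 groups in the fit, 83 with the block and 91 with the block and GC offsets. For KO1 against CT the 2 calls became 90 with DESeq2, 58 without the filter, 1 with 2 groups, 0 with the block and 13 with GC offsets, for KO2 against CT the 8 became 110, 68, 1, 1 and 28, and for KO2 against KO1 the 4 became 72, 58, 9 with limma-voom and 20 with GC offsets. Leaving out a library gave 79 to 106, 34 to 77 and 60 to 129 calls in the actin comparisons and 0 to 4, 3 to 7 and 3 to 5 in the SETD3 comparisons. LY6D in KO2 against CT was no longer called with 2 groups in the fit (3.43), the replicate block (3.38, adjusted p = 0.108) or the block with GC offsets (3.38, adjusted p = 0.0926), nor in KO2 against KO1 with the block (4.07, adjusted p = 0.0503) or the block with GC offsets (4.14, adjusted p = 0.0507). Left-out libraries gave 3.21 to 3.90 (adjusted p 0.00688 to 0.159) and 3.83 to 4.42 (0.00114 to 0.0585). DESeq2, RLE factors, no filter, limma-voom and GC offsets kept both LY6D calls. Same-numbered libraries did not all deviate together (not every correlation was above 0.1). That cannot settle whether the numbers pair the samples, so results with and without the block are given. Differently numbered SETD3 libraries did deviate together in part (r up to 0.57), and the cause was not tested. LYPD3 in KO2 against CT changed sign with limma-voom (0.61), the block with GC offsets (0.04) and left-out libraries (-0.80 to 0.62), without a call. So did these uncalled values when a library was left out: LY6K in KO1 against CT (-0.30 to 0.39), LYPD3 in KO1 against CT (-0.34 to 1.08), LY6E in KO2 against CT (-0.36 to 0.09), LY6E (-0.09 to 0.42) and PSCA (-0.60 to 0.53) in KO2 against KO1, and PSCA (-1.01 to 0.16) and LYPD3 (-0.32 to 1.52) in ACTB-WT against Actin KO. Among the called list genes, limma-voom lost ITGA6, KRT17, S100A2, OAS1, PARP9 and IRF9 in ACTB-WT against Actin KO, and KRT17 in ACTB-mut against Actin KO. It also lost ITGA6, KRT17, PARP9 and IFI27 in ACTB-mut against ACTB-WT, and BST2 in KO1 against CT. GC offsets lost KRT17, IFITM3, ISG15 and DHRS3 in ACTB-mut against Actin KO and IFI27 in ACTB-mut against ACTB-WT. A fit of 2 groups lost S100A2 and PARP9 in ACTB-WT and DHRS3 in ACTB-mut, both against Actin KO, PARP9 and IFI27 in ACTB-mut against ACTB-WT, and BST2 in KO1 against CT, and RLE factors lost OAS1 in ACTB-WT. Of the calls in KO1 against CT, the block lost both IFI6 and BST2 (adjusted p = 0.0941 each). In ACTB-WT against Actin KO the block lost ITGA6, S100A2, OAS1, PARP9 and IRF9. It lost KRT17 and DHRS3 in ACTB-mut against Actin KO, and ITGA6, PARP9 and IFI27 in ACTB-mut against ACTB-WT. With GC offsets added, the block also lost ITGB4, IFITM3, ISG15 and ALDH1A3 in ACTB-mut against Actin KO. In the actin table, LY6D stayed within 5.66 to 5.81, -2.04 to -1.63 and -7.78 to -7.37 with a library left out. Among the 5 genes most like LY6D, Spearman's rho shared 0 and a prior count of 0.5 shared 4. The cause of these changes was not tested. Depth limits LY6D most in ACTB-mut, where it held 26 counts over 3 libraries.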
